A study of Canis lupus familiaris with 34 samples.

Results

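The high-proliferation lines described here were 8 of 24 primary canine osteosarcoma cell lines, set against the 8 low-proliferation lines at the other end of the same ranking. The series held 34 Affymetrix canine arrays: 25 arrays of 24 primary lines, 3 of metastatic lines and 6 of snap-frozen tumour tissues. The groups were chosen by measured values: lines were ranked by the mean log2 intensity of TOP2A, CCNB2, CDK1, PLK1 and BUB1B, called the proliferation score below. The top 8 were the high lines, the bottom 8 the low lines, and the remaining 8 the middle lines. Primary line 19 was the mean of the 2 line arrays that carry the same dog's label. All lines came from dogs with naturally occurring bone cancer, 1 line for each dog, and no genetic change or drug was applied in culture as far as the labels say. The labels describe the material as tumour cells or cultured cells that had been frozen, without a passage number or a measured growth rate. Proliferation here therefore means RNA of dividing-cell genes, and all values come from bulk RNA, in which fewer cells of a type and less RNA per cell cannot be told apart.

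The genes of the score act in cells that are copying or separating their chromosomes. TOP2A untangles DNA, CCNB2 and CDK1 form the kinase that starts mitosis, PLK1 drives mitotic entry and spindle assembly, and BUB1B holds the cell until every chromosome is attached. Resting cells shut these genes down together through the RB-family proteins. D-type cyclins with CDK4 or CDK6 release that brake, and CDK inhibitors hold it. Osteosarcoma is a malignant tumour of bone-forming mesenchymal cells and normally lays down a collagen-rich matrix.

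The score ran from 9.66 to 11.27 in the high lines (10.38 ± 0.57, SD, n = 8) and from 3.68 to 6.93 in the low lines (5.24 ± 1.20, SD, n = 8), a difference of 5.14 log2 units. Just inside and just outside the upper limit were primary line 7 at 9.66 and primary line 5 at 9.46. At the lower limit primary line 18 was inside at 6.93 and primary line 14 outside at 7.15. TOP2A read log2 9.52, 12.05 and 12.77 (lowest, median and highest) in the high lines, against 4.05, 6.01 and 9.46 in the low lines, and CCNB2 read 9.56, 10.36 and 11.32 against 2.86, 4.47 and 6.92. None of the 5 genes overlapped between the groups, which the choice of lines largely fixed, so they carry no test. The 2 arrays behind line 19 scored 10.65 and 10.96. Metastatic lines 1 and 2 scored 7.45 and 7.74 and metastatic line 3 scored 10.05, inside the range of the high lines. The wider lists of cell cycle genes are given only as a description. By the call rule explained below, 265 of 322 (82.3%) were higher in the high lines and 1 (0.311%), the polymerase gene REV3L, was lower. They were 143 of 158 measured genes of mitosis, 94 of 107 of replication and 26 of 52 of DNA repair, and the rest were histone genes.

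**Figure D1:**
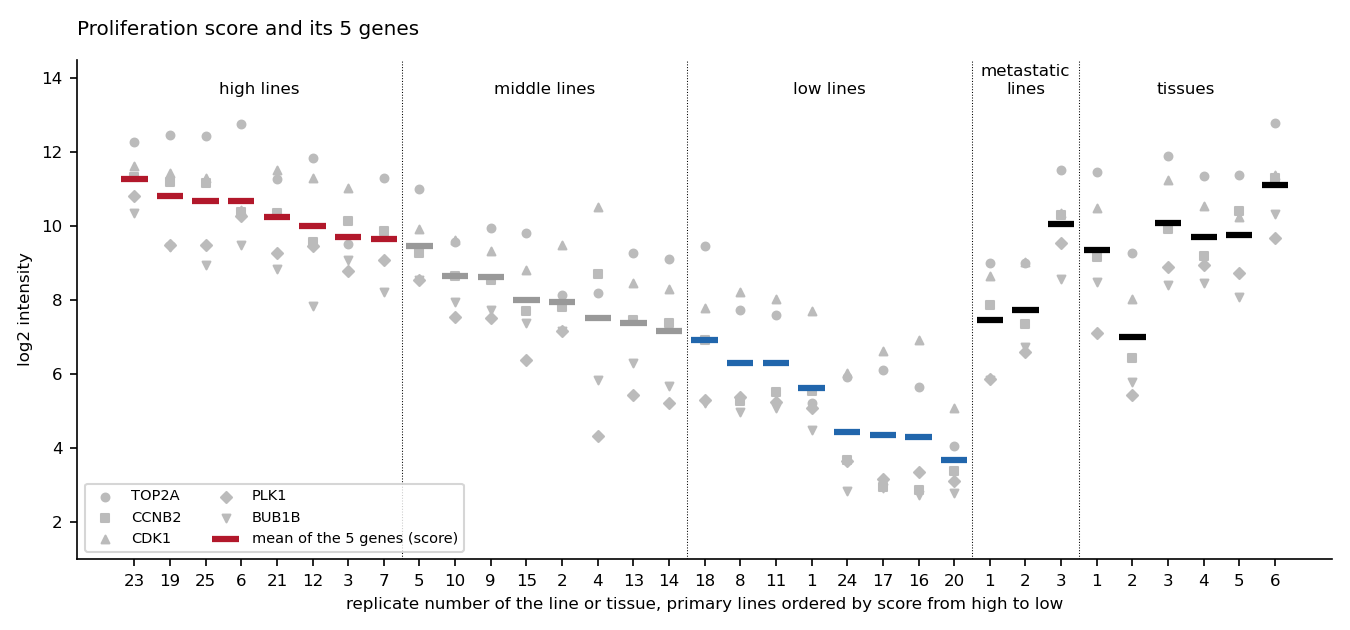
Log2 intensity of the 5 score genes (grey symbols) and their mean (bars) in 24 primary lines ordered by score, 3 metastatic lines and 6 tissues. Red bars mark the high lines (9.66 to 11.27), grey bars the middle lines, blue bars the low lines (3.68 to 6.93) and black bars the other samples. The score falls gradually through the middle lines with no gap at either limit.

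The labels of the dogs were mixed in both groups. By breed the high lines came from 5 Rottweilers, 2 Golden Retrievers and 1 German Shepherd, and the low lines from 5 Golden Retrievers, 1 Rottweiler, 1 Mastiff and 1 Alaskan Malamute. Females gave 4 of 8 high lines and 3 of 8 low lines. Age at diagnosis, whose unit is not given, ran from 2 to 9.8 for the high lines (n = 8) and from 2.67 to 9.41 for the low lines (n = 7), with a difference of means of -0.673 (two-sided exact permutation p = 0.611, adjusted p = 0.873). Treatment labels belong to the dogs and are abbreviations that the labels do not spell out; the asterisk marks dogs that died before chemotherapy began or was finished. In the high lines they were SOC for 3, SOC* for 2, PALL for 1 and none for 2, and in the low lines SOC for 4, SOC* for 1, AMP for 1, ABX for 1 and none for 1. No label or array quality measure passed the threshold between the groups. The share of Rottweilers had a two-sided p of 0.119 by Fisher's exact test and that of Golden Retrievers 0.315, with an adjusted p of 0.514 or more over all 10 comparisons of labels and array quality. The survival label, whose unit is not given, had a median of 3.39 in the high lines and 7.30 in the low lines (7 each with a value; difference of mean log2 -1.75, two-sided exact permutation p = 0.182, adjusted p = 0.514). The ACTB 3′ minus 5′ probe set difference is a sign of RNA degradation. Its median was 1.26 log2 units in the high lines and 1.75 in the low lines (exact permutation p = 0.232). The same difference for GAPDH went the other way, at medians of 3.08 in high and 2.9 in low lines (exact permutation p = 0.209). Column medians, given as linear intensity and not as log2, had a median of 8.33 in both groups. Low lines resembled each other more closely than high lines did: pairwise correlations over the tested genes had a median of 0.884 among high lines and 0.943 among low lines, beside 0.853 between the groups. The 2 arrays of line 19 correlated at 0.919, and their titles carry different prefixes. Primary lines 5 and 9, middle lines from separate dogs, correlated at 0.979. All line pairs share the array platform, and whether all arrays were normalized together is not stated. Title prefix was among the labels compared, and the most common prefix was carried by 6 of 8 high and 7 of 8 low lines.

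Outside the cell cycle lists, differences between high and low lines were widespread in both directions. The limit of these lists was a choice: the nuclear pore gene NUP107 was on them and the pore gene NUP85 was not. Genes were compared with limma over 24 lines in 3 groups, and a gene was called at an adjusted p under 0.05 over all 7849 genes tested, of which 27.1% passed (17.9% higher and 9.21% lower in the high lines). Among the 7527 genes outside the cycle lists, 1139 (15.1%) were higher and 722 (9.59%) lower in the high lines. Some of them followed the score closely over the 24 lines, such as SNRPA (correlation 0.921) and DDX39A (0.917). With genes correlating over 0.8 in size with the score left out, 1054 were higher and 714 lower. Whether such genes belong to the cell cycle was not tested. The differences among the called genes had a median of 1.00 log2 unit upward and -1.28 downward, where 1 unit is a 2-fold difference, while the median over all tested genes was 0.11. With a 2-fold minimum added, 569 (7.56%) were higher and 476 (6.32%) lower. In 111 genes (1.47%) every high line lay above every low line, and in 65 (0.864%) every high line lay below. The lines were ranked by other genes of the same arrays, so these p-values measure how genes go along with the score and not an applied condition.

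The metastatic lines took no part in the fit. Metastatic line 3, the one with a high score, was above both other metastatic lines for 691 of the 1139 genes higher in the high lines (60.7%, against 33.4% of all genes outside the cycle lists). It was below both for 384 of the 722 lower genes (53.2%, against 24.6%). With 1 such line, these shares describe that line and were not tested. Metastatic line 1 differed in array quality. Its GAPDH 3′ minus 5′ difference was 5.92 log2 units, against 3.12 and 3.21 in metastatic lines 2 and 3. It had 10028 probe sets over log2 5, against 11133 and 11148. The part of array quality in these shares was not tested.

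The 12 genes with the largest upward differences included several that were bright in only some of the high lines. EPCAM, an epithelial adhesion molecule, read log2 1.89, 6.36 and 12.19 (lowest, median and highest) in the high lines, against 1.97, 2.35 and 2.94 in the low lines (difference 3.75, SE 1.01, adjusted p = 0.00881). Its values passed log2 5, the brightness limit used here, in 4 of 8 high lines (23, 25, 6 and 12) and in no low line, while lines 3 and 7 were as dim as the low lines. BMP7, a bone morphogenetic protein that promotes bone and kidney development, was over log2 5 in 6 of 8 high lines and 0 of 8 low lines (medians of 6.49 in high and 1.94 in low lines, difference 4.71, SE 1.21, adjusted p = 0.00663). The tetraspanin gene TSPAN8 was also over log2 5 in 6 high lines, at 3.04, 8.21 and 12.86 in the high lines and 2.53, 2.88 and 3.28 in the low lines (difference 4.92, SE 1.17, adjusted p = 0.00371). CXADR, a cell-junction protein that also serves as a virus receptor, was likewise over log2 5 in 6 high lines and no low line (difference 4.07, SE 0.95, adjusted p = 0.00309). In each of these 4 genes line 3 stayed at the level of the low lines.

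LOC485338 and LOC487476 did not overlap between the groups. Over the 24 primary lines they correlated with the score at 0.951 and 0.915, beside 0.958 for the score gene TOP2A. The cycle lists were matched by gene symbol, so loci without a gene name could not be found on them. Whether these 2 belong to the cell cycle was not tested. LOC485338 read 10.73, 11.52 and 12.12 in the high lines, against 2.59, 6.47 and 8.33 in the low lines (difference 5.53, SE 0.73, adjusted p = 5.78e-06). The gene table lists it as a pseudogene, so its probe sets may also read a related gene, which was not tested. LOC487476, a protein-coding locus with no gene name in the table, had medians of 8.11 in high and 3.35 in low lines (difference 4.24, SE 0.50, adjusted p = 1.03e-06). The homeobox gene HOXB7 was over log2 5 in 7 high and 2 low lines (difference 3.58, adjusted p = 0.0114), the cadherin CDH6 in 6 high and 3 low lines (3.57, adjusted p = 0.0153), and the tetraspanin TSPAN13 in 7 high lines and 1 low line (4.16, adjusted p = 0.0129). TAC1, the precursor of substance P, and CA2, a carbonic anhydrase, were the least stable of the 12. TAC1 differed by 3.68 (adjusted p = 0.0324) and was over log2 5 in 5 high lines and in low line 18 (8.20), and leaving out any of lines 1, 6, 8, 12, 16, 17, 20, 23, 24 or 25 ended the call at differences of 3.14 to 3.58. CA2 differed by 5.07 (adjusted p = 0.0309) through high lines 23, 6, 12 and 7, and the call ended without line 6, 7, 23 or 24, at differences of 4.15 to 4.99.

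**Figure D2:**
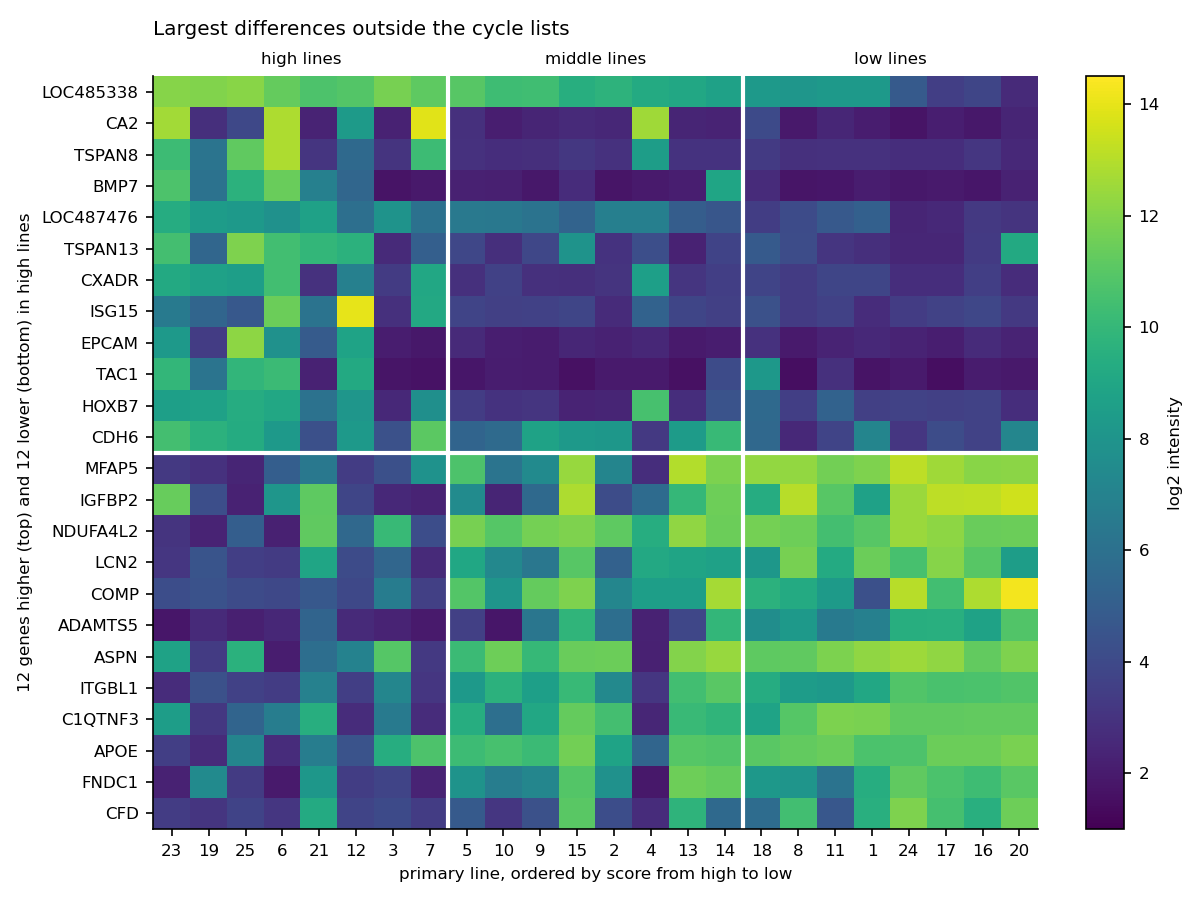
Log2 intensity (colour) of the 12 genes with the largest called upward and the 12 with the largest called downward differences outside the cycle lists, in 24 primary lines ordered by score. White lines separate high, middle and low lines. EPCAM, BMP7 and TSPAN8 are bright in only some of the high lines, while the lower genes are bright in nearly all low lines. BMP7 is also bright in middle line 14 (8.94) and TSPAN8 in middle line 4 (8.54).

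Several of the 12 genes with the largest downward differences encode extracellular matrix components. MFAP5, a component of the microfibrils that carry elastic fibres, read 2.38, 3.84 and 7.90 in the high lines, against 11.60, 12.23 and 13.18 in the low lines, with no overlap (difference -7.81, SE 1.12, adjusted p = 1.77e-05). The aggrecan-cleaving protease ADAMTS5 read 1.84, 2.43 and 5.36 in the high lines and 6.49, 8.55 and 10.86 in the low lines, again without overlap (difference -5.82, SE 1.00, adjusted p = 0.000156). LCN2, a secreted iron-siderophore carrier, had medians of 3.80 in high and 10.77 in low lines (difference -5.90, SE 0.85, adjusted p = 1.99e-05), and only high line 21 at 8.94 reached the range of the low lines. ASPN, a small proteoglycan that binds TGF-beta, and ITGBL1, an integrin beta-like secreted protein, did not overlap between the groups (differences -5.43 and -5.42, adjusted p = 0.00343 and 9.76e-05).

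Of the other 7 genes in that set, each overlapped between the groups. NDUFA4L2, a mitochondrial protein induced by hypoxia-inducible factor, had medians of 4.62 in the high lines and 11.5 in the low lines, and high lines 21 and 3 stood at 11.18 and 10.08 (difference -6.07, SE 0.98, adjusted p = 7.94e-05). IGFBP2, which binds insulin-like growth factors, differed by -6.08 (SE 1.55, adjusted p = 0.00605) with high lines 23 and 21 at 11.38 and 11.13, inside the range of the low lines. COMP, a cartilage matrix protein, had a median of 4.15 in the high lines and 10.03 in the low lines (difference -5.83, adjusted p = 0.000332), and low line 1 alone read 4.32. The lipid carrier APOE (-5.31), C1QTNF3 (-5.38), FNDC1 (-5.28) and the complement protease CFD (-5.01) completed the set, at adjusted p-values from 0.000486 to 0.00483. All kept probe sets of these genes pointed the same way, but the 2 of APOE gave differences of -5.31 and -1.

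The gene lists divided along the same lines: parts of the machinery that makes and turns over nuclear RNA and protein were higher in the high lines, and secreted, lysosomal and hypoxia-related genes were lower. Counts below are to be read beside the 15.1% of genes that were called higher and the 9.59% called lower outside the cycle lists. Lists were chosen with earlier results of these arrays known, so they describe the difference and are no independent evidence for it.

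**Figure D3:**
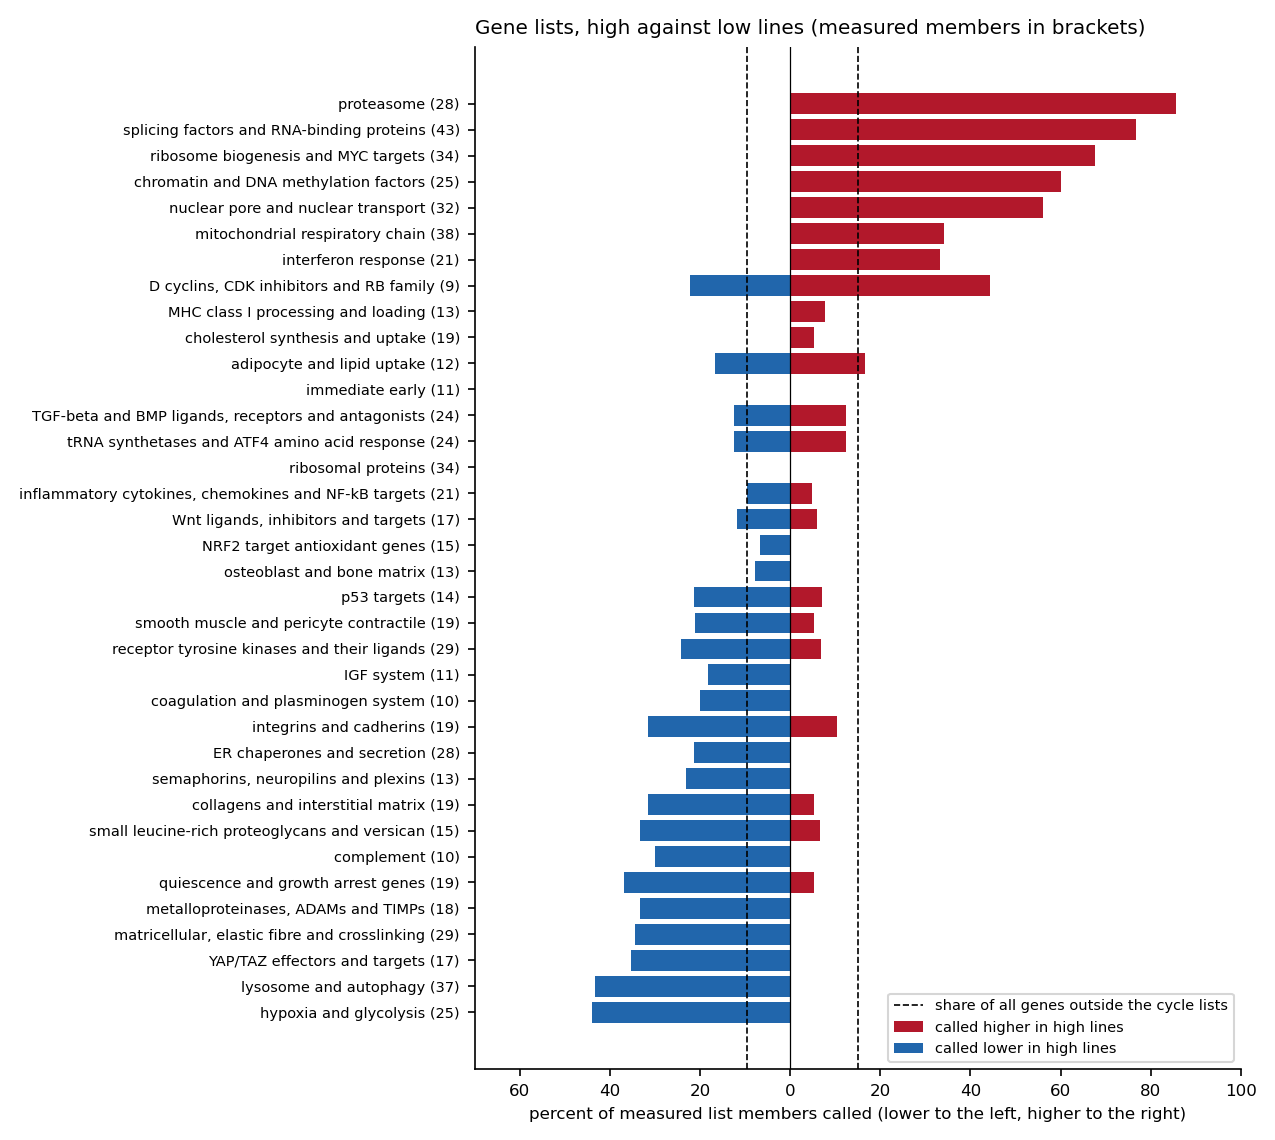
Percent of measured members called higher (red, right) or lower (blue, left) in high lines for lists with at least 9 measured members, given in brackets. Dashed lines mark the same shares over all genes outside the cycle lists, 15.1% and 9.59%. Proteasome, splicing and ribosome biogenesis lists reach furthest to the right, and hypoxia and lysosome lists furthest to the left.

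Proteasome subunits, which form the cell's main protein-degrading particle, were called higher in 24 of 28 measured genes (85.7%) and lower in none, with a median difference of 0.70. Without the highest and the lowest line 15 of 28 were called. PSMA5, a ring subunit of the catalytic core, read 12.31, 12.51 and 13.17 in the high lines, against 11.22, 11.54 and 11.96 in the low lines, with no overlap (difference 1.01, SE 0.19, adjusted p = 0.000413). The regulatory ATPase PSMC4 differed by 1.03 (SE 0.20, adjusted p = 0.000757). A list level for each line, the mean over members of log2 intensity minus the gene's mean over 24 lines, ran from 0 to 0.71 in the high lines and from -0.68 to -0.02 in the low lines, with the middle lines at a median of -0.02. PSMA5 lost its call (adjusted p = 0.426) when the probe set with the largest interquartile range was taken for each gene.

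Ribosome biogenesis and MYC target genes were higher in 23 of 34 (67.6%) and lower in none (median 1.00). The nucleolar methyltransferase NOP2 read 8.49, 9.25 and 10.07 in the high lines and 6.62, 7.32 and 8.51 in the low lines, a narrow overlap (difference 1.88, SE 0.32, adjusted p = 0.000151). DKC1, which modifies ribosomal RNA and stabilizes telomerase RNA, differed by 2.66 (SE 0.52, adjusted p = 0.000631) and the nucleolar protein MYBBP1A by 1.73 (SE 0.36, adjusted p = 0.00124). The ribosomal proteins themselves did not follow: 0 of 34 were called by limma in either direction (at an unadjusted p under 0.05, 0 were higher and 2 lower), with a median difference of -0.03 and list levels of -0.12 to 0.07 in the high lines and -0.22 to 0.17 in the low lines.

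Splicing factors and RNA-binding proteins were higher in 33 of 43 (76.7%), with none lower and a median of 0.97. DDX39A, an mRNA export helicase, read 9.96, 10.72 and 11.64 in the high lines and 7.40, 8.20 and 9.54 in the low lines, without overlap (difference 2.47, SE 0.34, adjusted p = 8.62e-06). SNRPA, a protein of the U1 splicing particle, was also separate (difference 1.85, SE 0.24, adjusted p = 4.4e-06). Nuclear pore and transport genes were higher in 18 of 32 (56.2%; median 0.72), and RANGAP1, which activates the Ran GTPase, read 7.03, 7.55 and 8.55 in the high lines and 4.62, 5.28 and 5.97 in the low lines (difference 2.36, SE 0.30, adjusted p = 3.64e-06). The pore protein NUP85 did not overlap between the groups either (difference 2.14, SE 0.24, adjusted p = 5.97e-07). Chromatin factors were higher in 15 of 25 (60%; median 0.75), including the Polycomb subunit SUZ12 (1.73, adjusted p = 0.00487) and the architectural protein HMGA1 (2.85, adjusted p = 0.0113), in which high line 21 read only 6.46 and whose call ended with breed as a covariate (1.90, adjusted p = 0.102). Respiratory chain genes were higher in 13 of 38 (34.2%) with a median of 0.30, and in 7 of 38 with breed as a covariate. Cytochrome c (CYCS) differed by 1.62 and cytochrome c1 (CYC1) by 1.54, at adjusted p-values of 0.0014 and 0.000148.

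**Figure D4:**
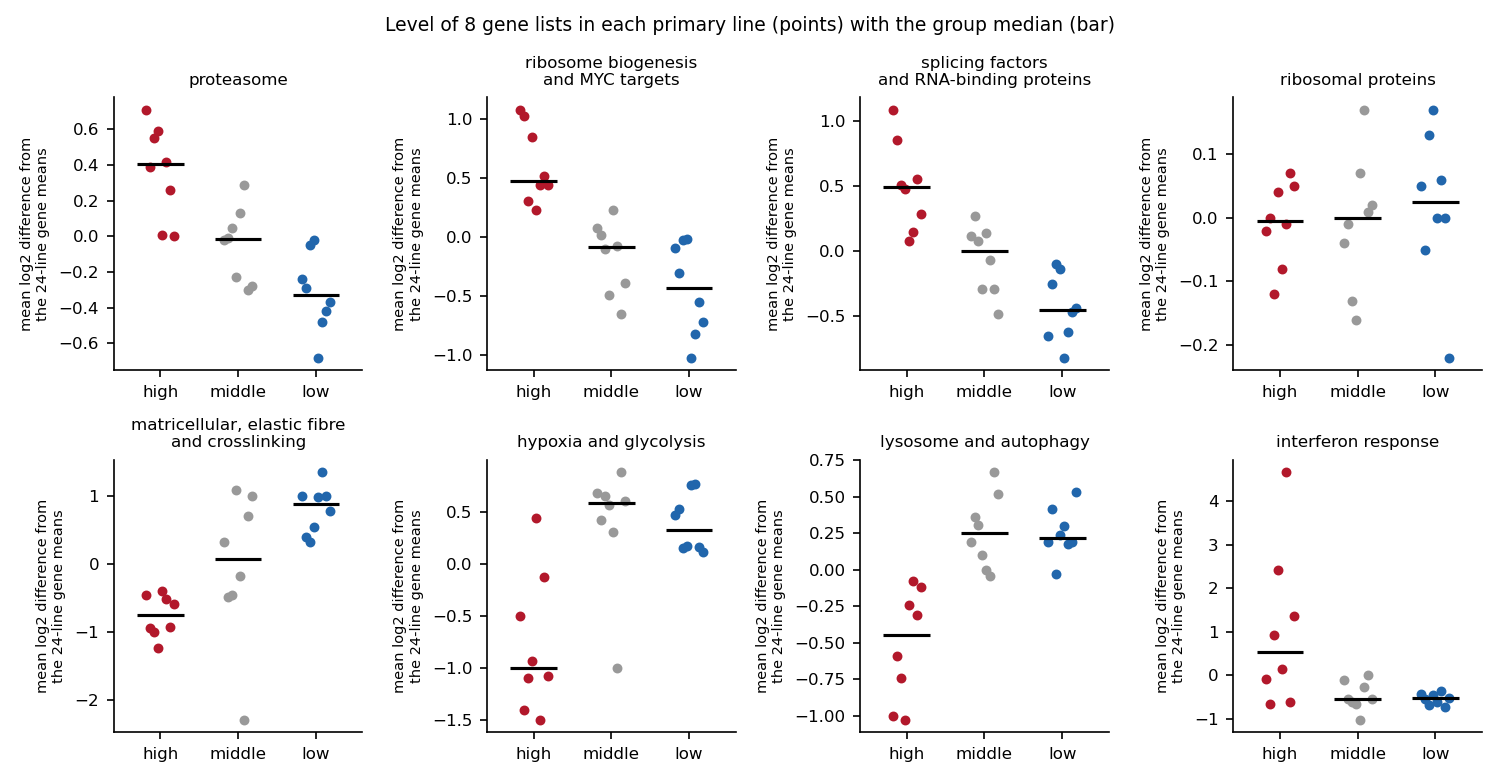
Level of 8 gene lists in each primary line, as the mean over members of log2 intensity minus the gene's 24-line mean, for high, middle and low lines (points) with the group median (bar). Proteasome, ribosome biogenesis and splicing levels step down from high to middle to low lines, and ribosomal proteins stay near 0. In the hypoxia and lysosome lists most middle lines lie with the low lines, but middle line 4 lies below every low line in both, at -1 and -0.04.

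Extracellular matrix genes were lower in the high lines across several lists. Matricellular, elastic fibre and crosslinking genes were called lower in 10 of 29 (34.5%) and higher in none, with a median of -1.36, and their list level separated the groups (-1.24 to -0.39 in the high lines, 0.32 to 1.35 in the low lines). MFAP4, another microfibril protein, read 2.16, 2.55 and 3.20 in the high lines and 3.66, 6.92 and 9.76 in the low lines (difference -4.34, SE 0.88, adjusted p = 0.000958). EFEMP2, which is needed for elastic fibre crosslinking, had medians of 6.22 in high and 10.89 in low lines (difference -4.81, SE 1.28, adjusted p = 0.00821). Collagens and interstitial matrix genes were lower in 6 of 19, among them POSTN, a matrix protein of the periosteum (-4.58, adjusted p = 0.00799), while NID2 of the basement membrane was higher (2.95, adjusted p = 0.0157; 2.30 and 0.102 with the score as a continuous term) and its relative NID1 lower (-2.22, adjusted p = 0.0106). NID1 passed log2 5 in 0 high and 4 low lines, and NID2 in 7 high and 3 low lines.

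In the list of small leucine-rich proteoglycans, versican and other proteoglycans 5 of 15 were lower (median -1.34). With breed as a covariate 3 were lower. GPC3 was the 1 member called higher (difference 2.36, adjusted p = 0.0292), and its call ended without line 1, 6, 8, 12, 19, 23 or 24. BGN, a proteoglycan of bone matrix, read 4.39, 10.79 and 12.46 in the high lines. All high lines lay under the low lines' 12.53 to 13.38 (difference -2.47, SE 0.76, adjusted p = 0.019). The value of 4.39 came from line 7 alone, and without that line the difference was -1.61. The call of BGN ended with the score as a continuous term (-1.94, adjusted p = 0.0528) and with breed as a covariate (-2.17, adjusted p = 0.0828). Metalloproteinases and their inhibitors were lower in 6 of 18 and higher in none, with MMP2, a gelatinase, at medians of 7.58 in high and 12.82 in low lines (difference -4.49, SE 1.18, adjusted p = 0.00769) and the procollagen protease ADAMTS2 without overlap (difference -2.84, SE 0.62, adjusted p = 0.00192). Integrins and cadherins were lower in 6 of 19 and higher in 2, and the collagen receptor ITGA1 had medians of 6.60 in high and 10.51 in low lines (difference -4.05, SE 0.64, adjusted p = 6.08e-05).

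Of 8 measured fibroblast and tendon markers 2 were called lower in the high lines and none higher, and the list level ran from -2.97 (line 7) to 0.38 (line 21) in the high lines and from -0.41 to 1.31 in the low lines, with 6 of 8 high lines below every low line. The 2 genes, named after their values were seen, were PDGFRB, a growth factor receptor of fibroblasts and pericytes (medians of 5.19 in high and 8.21 in low lines, difference -2.82, SE 0.78, adjusted p = 0.0106), and FAP, a protease of activated fibroblasts (medians of 8.75 in high and 11.99 in low lines, difference -3.74, SE 1.20, adjusted p = 0.0232). Osteosarcoma cells can express these genes themselves, and the part of non-tumour fibroblasts in the matrix differences was not tested. Of 13 measured bone-forming markers 1 was called, the matrix protein SPARC (-0.52, adjusted p = 0.0397, a call that ended without line 16, 17, 18, 19, 20, 23, 24 or 25 at -0.37 to -0.53), and 6 had a median over log2 5 in the high and low lines together.

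Contractile genes of smooth muscle and pericytes gave an unsteady count, with 4 of 19 lower. ACTA2, smooth muscle actin, read 1.84, 11.86 and 13.92 in the high lines and 13.57, 13.98 and 14.24 in the low lines (difference -3.62, SE 1.18, adjusted p = 0.0259), and its call ended without line 12 (-3.20), with the 16 high and low lines alone (adjusted p = 0.0535) and with breed as a covariate (-2.97, adjusted p = 0.123). Leaving out single lines moved the count of 4 to 0 (line 12), to 1 (lines 25, 6, 11, 24 or 17), to 2 (lines 21, 18 or 16) or to 8 (middle line 4), and breed as a covariate moved it to 0.

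Hypoxia and glycolysis genes were lower in 11 of 25 (44%) and higher in none, with a median of -0.98. PFKFB3, which drives glycolysis through fructose 2,6-bisphosphate, read 5.21, 6.64 and 7.99 in the high lines and 8.09, 9.63 and 10.02 in the low lines, without overlap (difference -2.70, SE 0.51, adjusted p = 0.000525). The hypoxia-induced peptide gene ADM spanned 9.91 to 13.52 in the high lines and 13.04 to 13.87 in the low lines (difference -2.28, SE 0.41, adjusted p = 0.000272), and ANKRD37, a target of hypoxia-inducible factor, had medians of 8.52 in high and 11.38 in low lines (difference -2.74, SE 0.48, adjusted p = 0.00021). In list level 7 of 8 high lines lay below every low line, and line 21 at 0.44 lay among them. Without line 21 the count was 17 of 25. Middle lines had a median level of 0.58, which was nearer to the low lines (0.32) than to the high lines (-1). Oxygen and medium conditions of the cultures are not given by the labels.

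Lysosome and autophagy genes were lower in 16 of 37 (43.2%) and higher in none (median -0.77), and the list level separated the groups (-1.03 to -0.08 in the high lines, -0.03 to 0.53 in the low lines). The sulfatase ARSA read 5.42, 6.91 and 8.68 in the high lines and 8.75, 9.50 and 9.93 in the low lines, without overlap (difference -2.69, SE 0.43, adjusted p = 7.33e-05). Cathepsin F (CTSF) was also separate, at 6.21, 8.33 and 9.77 in the high lines and 9.89, 10.94 and 11.44 in the low lines (difference -2.66, SE 0.42, adjusted p = 6.34e-05). Genes of the endoplasmic reticulum were lower in 6 of 28, with small sizes: HERPUD1, a component of protein quality control there, fell by 0.98 (SE 0.20, adjusted p = 0.00109) and did not overlap. Complement genes were lower in 3 of 10, among them the regulator protease CFI (-2.47, SE 0.42, adjusted p = 0.000151), without overlap.

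Interferon response genes were higher in 7 of 21 (33.3%) and lower in none, with a median of 1.47, but unevenly between lines. ISG15, a ubiquitin-like protein induced by interferon, read 2.89, 6.32 and 13.99 in the high lines, against 2.69, 3.5 and 4.34 in the low lines (difference 4.01, SE 1.04, adjusted p = 0.00702). HERC5, which attaches ISG15 to proteins, had medians of 7.52 in high and 3.05 in low lines (difference 3.47, SE 0.65, adjusted p = 0.000442), and USP18, which removes it, 5.11 in high and 2.38 in low lines (difference 3.14, SE 0.79, adjusted p = 0.00581). By list level line 12 stood at 4.67, line 6 at 2.41 and line 7 at 1.36, while lines 19 and 3 at -0.67 and -0.61 lay inside the low lines' range of -0.74 to -0.37. The count was 4 without line 6, 12, 1, 24, 17 or 16, 11 without line 3, and 3 with breed as a covariate. Of 13 genes of MHC class I presentation 1 was higher (7.69%, under the background share). It was DLA-64, a canine class I gene (2.33, SE 0.69, adjusted p = 0.0148), which lost its call without the highest and the lowest line (2.03, adjusted p = 0.0584). Among 21 inflammatory genes 1 was higher (4.76%) and 2 lower (9.52%), no more than the background shares. The apoptosis inhibitor BIRC3 was higher (2.75, adjusted p = 0.00159), and the alarmin IL33 (-3.31, adjusted p = 0.00396) and TNFAIP6, a hyaluronan-binding protein (-2.72, adjusted p = 0.011), were lower.

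Markers of immune and endothelial cells were not called. None of 15 measured macrophage markers passed in limma (1 was lower at an unadjusted p under 0.05), none had a median over log2 5 in the high and low lines together, and the list level ran from -0.26 to 0.17 in the high lines and from -0.27 to -0.03 in the low lines. None of 8 endothelial markers was called, nor passed an unadjusted p under 0.05, and their level ran from -0.60 to 0.22 in the high lines and from -0.71 to -0.11 in the low lines. The line whose endothelial level stood apart, primary line 4 at 5.39, was a middle line. Without it 1332 genes outside the cycle lists were higher and 904 lower. Of 2 measured epithelial markers EPCAM was the one called. Named after their values were seen, ATP6V0D2 was lower among 4 osteoclast markers (-0.94, adjusted p = 0.0264, under log2 5 in all high lines), and the skeletal muscle actin ACTA1 among 2 muscle markers (-3.35, adjusted p = 0.0118).

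At the G1 checkpoint, where D cyclins and CDK inhibitors set the RB brake, members moved in both directions. CDKN2C, an inhibitor of CDK4 and CDK6, read 10.91, 11.78 and 12.93 in the high lines, against 8.08, 8.98 and 10.39 in the low lines, without overlap (difference 2.82, SE 0.30, adjusted p = 3.25e-07). Its relative CDKN2D was also higher (medians of 6.27 in high and 4.38 in low lines, difference 1.74, SE 0.35, adjusted p = 0.000909). CDKN1A, the p21 inhibitor induced by p53, went the other way at 7.81, 9.62 and 12.87 in the high lines and 11.05, 12.44 and 13.53 in the low lines (difference -2.32, SE 0.51, adjusted p = 0.00203). High line 7, at 12.87, had as much CDKN1A as the low lines. RBL2, the RB relative of the quiescence complex, was lower (medians of 7.39 in high and 9.18 in low lines, difference -1.61, SE 0.26, adjusted p = 9.48e-05).

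CDK4 read 11.70, 12.24 and 12.69 in the high lines and 10.72, 11.27 and 12.11 in the low lines (difference 0.90, SE 0.27, adjusted p = 0.0157). CCND3 was higher by 1.17 (SE 0.37, adjusted p = 0.0225) from dim levels, and its call ended when the 16 high and low lines were fitted alone (adjusted p = 0.0539) and with breed as a covariate (adjusted p = 0.101). CCND1 and CCND2 were not called, at differences of -1.16 (SE 0.58, adjusted p = 0.141) and -0.03 (SE 0.47, adjusted p = 0.968). MTAP, which in humans lies beside CDKN2A, was over log2 5 in 5 of 8 high lines and all 8 low lines. High lines 23, 19 and 12 read 1.55, 1.70 and 1.84, and the other high lines 8.79 to 11.51 (difference -3.10, SE 1.24, adjusted p = 0.066, not called). MTAP passed in 6 other settings, namely array weights, breed as a covariate and leaving out line 25, 6, 3 or 7, and its difference ran from -4.15 to -2.32 over all settings. Of 14 p53 targets, CDKN1A among them, 3 were lower and 1 higher, with CCNG1 at -0.94 (adjusted p = 0.00225) and FDXR at 0.74 (adjusted p = 0.0219). CCNG1 lost its call with the most variable probe set (-0.41, adjusted p = 0.656), and FDXR with quantile normalization (adjusted p = 0.119), with the 16 high and low lines alone (0.0545) and with breed as a covariate (0.0821).

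**Figure D5:**
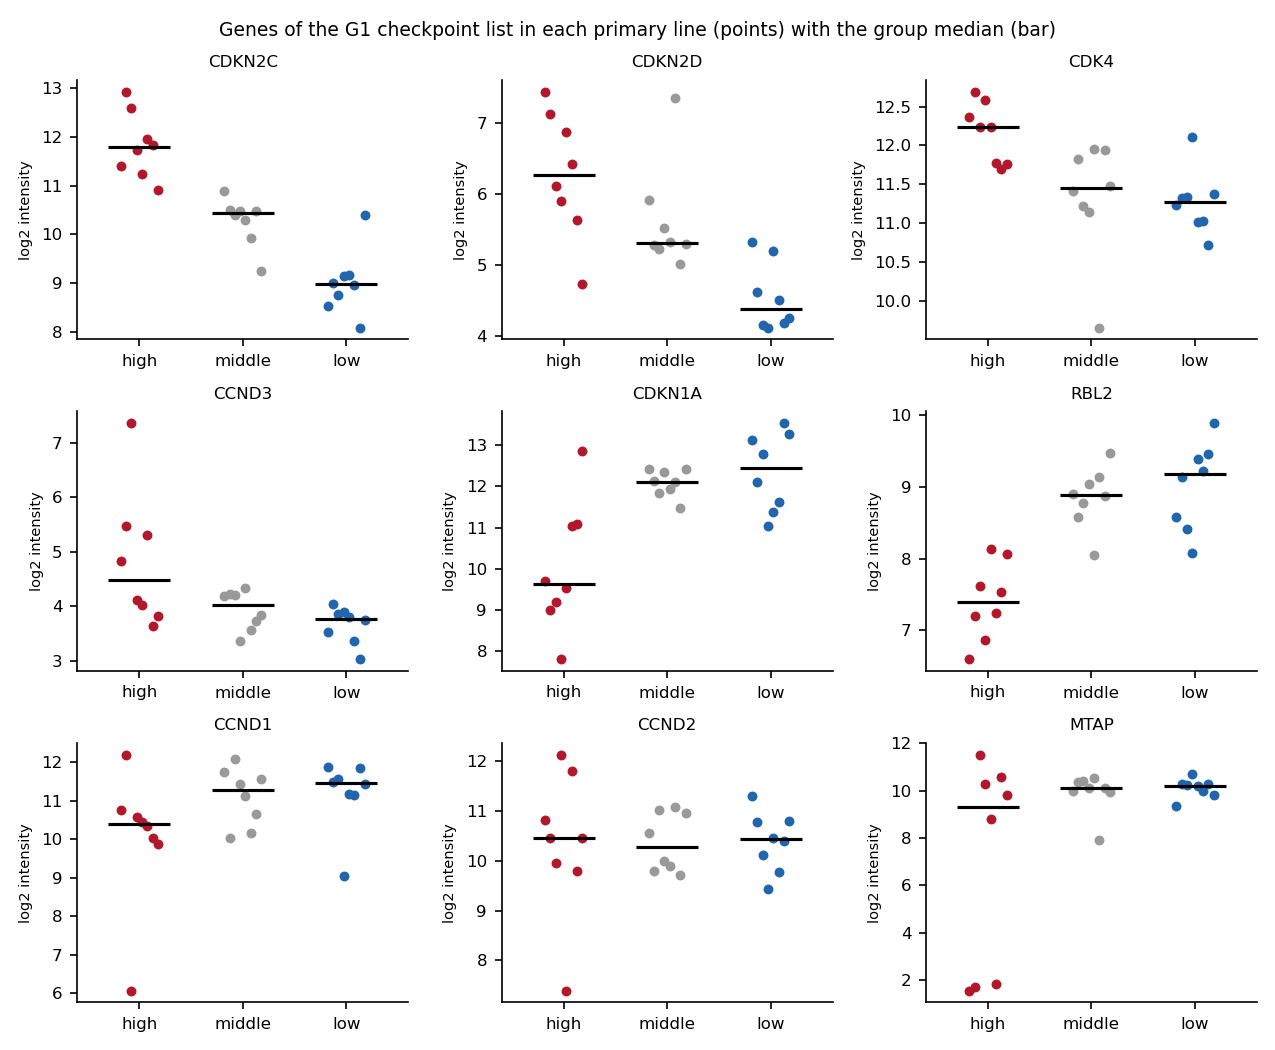
Log2 intensity of 9 genes of the G1 checkpoint list in each high, middle and low primary line (points) with the group median (bar). CDKN2C is higher in every high line than in any low line, CDKN1A is lower in most high lines, and MTAP is near the floor in 3 high lines only.

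Genes of growth arrest were lower in 7 of 19 (4 with breed as a covariate) and higher in 1. The transcription factor KLF4 had medians of 11.11 in the high lines and 12.31 in the low lines (difference -1.70, SE 0.42, adjusted p = 0.00528), and DDIT4, a stress-induced inhibitor of mTORC1, 6 in high and 9.22 in low lines (difference -2.78, SE 0.68, adjusted p = 0.0047). GAS6, a ligand of TAM receptors first found in growth-arrested cells, read 2.54, 5.95 and 8.57 in the high lines and 8.45, 10.41 and 12.78 in the low lines (difference -4.42, SE 0.77, adjusted p = 0.000187). High lines 3 and 21 stood at the edge of the low lines, at 8.57 and 8.44.

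Receptor tyrosine kinases and their ligands had 7 of 29 members lower and 2 higher, with a list median of -0.01. The 2 higher calls were not steady: without line 19, 23, 24 or 16 the count was 0, without line 25, 6, 18, 11, 1, 17, 5 or 9 it was 1, and without line 7 it was 4. VEGFC, which acts on lymphatic vessels, had medians of 6.20 in high and 9.80 in low lines (difference -3.17, SE 0.54, adjusted p = 0.000149), and FGF7, a fibroblast-derived factor that acts on epithelium, 2.92 in high and 8.61 in low lines (difference -3.78, SE 1.18, adjusted p = 0.0207). The call of FGF7 ended without the highest and the lowest line (-3.11, adjusted p = 0.083) and with breed as a covariate (-3.82, adjusted p = 0.0536). In the TGF-beta and BMP list 3 of 24 were higher and 3 lower, close to the background shares, and the BMP antagonist CHRDL1 was lower (medians of 2.57 in high and 7.35 in low lines, difference -3.89, SE 0.69, adjusted p = 0.000265) while BMP7 was higher. Of 17 Wnt genes 1 was higher (5.88%) and 2 lower (11.8%), under and near the background shares. NOTUM, an enzyme that inactivates Wnt ligands, was higher (2.70, adjusted p = 0.00725), and the coreceptor LRP5 (-2.39, adjusted p = 0.00413) and DKK3 (-1.24, adjusted p = 0.0186) were lower. Guidance molecules included NTN4, a netrin, at medians of 4.19 in high and 9.18 in low lines (difference -3.87, SE 0.65, adjusted p = 0.000123), and NRP2, a neuropilin, without overlap (difference -1.53, SE 0.48, adjusted p = 0.0198), whose call ended with the score as a continuous term (adjusted p = 0.0734) and with breed as a covariate (0.0588).

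Several lists were near or under the background shares of 15.1% higher and 9.59% lower. None of 11 immediate early genes was called by limma or passed an unadjusted p under 0.05, 1 of 19 cholesterol genes was, and tRNA synthetases and amino acid response genes had 3 of 24 called in each direction. NRF2 target genes had 1 of 15 lower, the malic enzyme ME1 (-0.82, adjusted p = 0.00536), which lost its call with the most variable probe set (-0.93, adjusted p = 0.0996). FABP5, a fatty acid carrier of the adipocyte and lipid list, was higher (medians of 12.35 in high and 9.83 in low lines, difference 2.46, SE 0.62, adjusted p = 0.00605). MEIS2, a HOX cofactor, was lower (medians of 8.51 in high and 10.72 in low lines, difference -2.70, SE 0.68, adjusted p = 0.00597).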

How the data were processed

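The deposited intensity of each of 43035 probe sets on 34 arrays is a GCRMA value according to the submitters' processing notes, with version and settings not given in the sources used here. Values were taken to log2 and 175 control probe sets were left out. Both line arrays of dog 22 were averaged on the log2 scale. Probe sets with 1 symbol and a log2 over 5 on at least 3 arrays were kept (14059), and the brightest on average stood for its gene (7849 genes). limma 3.58.1 in R 4.3.3 was fitted to 24 primary lines in 3 score groups, with Benjamini-Hochberg adjustment over all genes. The limma p-values set the difference between high and low lines against the spread between lines within the 3 groups. Labels were compared by exact tests. On simulated data of 7849 genes, 27 of 67 differences of 1 log2 unit (40.3%) were called. So were 59 of 67 differences of 2 units (88.1%) and 65 of 66 of 4 units (98.5%). The other 8 of the 159 calls fell on unchanged genes. Between high and low lines 27.1% of genes were called, and recovery at that share was not tested.

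The members and gene lists were chosen with earlier results of these data known. Genes named were the 12 largest called differences in each direction outside the cycle lists, up to 3 called genes of each list, the D cyclin and CDK inhibitor list, and the score genes; others are marked. Array number and background correction limit precision, and levels were compared only within a gene.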

Additional observations from a re-analysis of the deposited data

Results flagged for a closer look

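In 26 of 232 group values tested among the genes named by rule, the highest or lowest of 8 lines stood apart from the others by Dixon's test, where chance flags about 1 group in 20 (5%). All values are log2 intensities of the line that stood apart.

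Among high lines, line 21 was apart in LCN2 (8.94), ADAMTS5 (5.36), CFD (9.25) and HMGA1 (6.46), each time nearest to the low lines. High line 7 was apart in BGN (4.39), TGFB2 (3.74) and SLIT3 (2.93), each time farthest from the low lines. High line 3 was apart in COMP (6.69), NTN4 (7.39) and the score gene TOP2A (9.52), nearest to the low lines in all 3. High line 25 was apart in CCND1 (6.07) and TAGLN (8.30), and high line 6 in SERPINF1 (10.37).

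Among low lines, line 18, the one with the highest score of the 8, was apart in CA2 (4.01), TAC1 (8.20), C1QTNF3 (8.84), GPC3 (8.61) and HERC5 (3.73), each time toward the high lines. Low line 20, the one with the lowest score, was apart in TSPAN13 (9.20) and CDKN2C (10.39), toward the high lines, and in HERPUD1 (13.37) and TAGLN (13.63). Low line 1 was apart in CCND1 (9.04), ITGA1 (8.5) and MATN4 (1.59), and low line 11 in SERPING1 (6.97).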

How the results depend on the processing

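Over all other settings tried, the genes outside the cycle lists called higher in the high lines numbered 569 to 1428 and those called lower 476 to 1005, and no called gene changed direction except 1 with a brightness limit of log2 7 and 6 with the most variable probe set for each gene. Leaving out each high or low line in turn gave 887 to 1233 higher and 571 to 801 lower. The smallest counts came from a 2-fold minimum (569 and 476) and, as settings chosen after seeing the data, from leaving out the highest and the lowest line (749 and 510) and from breed as a covariate (773 and 507). Breed went partly with the groups: Rottweilers gave 5 high lines and 1 low line, and the Mastiff and Alaskan Malamute labels 1 low line each. The part of breed itself in calls lost with this covariate was not tested. Of 107 named genes that were called, 76 kept the call in all settings that tested them and 31 lost it in at least 1.

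Some list medians moved with the setting. Over all settings the medians ran from -0.97 to -0.40 for metalloproteinases, -2.24 to -0.77 for fibroblast and tendon markers and 0.89 to 1.80 for interferon genes. With a limit of log2 7 they were -0.60 for D cyclins and CDK inhibitors, -2.22 for cartilage, -0.59 for receptor tyrosine kinases, -0.91 for coagulation and -1.30 for semaphorins. With the most variable probe set coagulation was at -0.86. With breed as a covariate D cyclins and CDK inhibitors were at -0.52 and matricellular genes at -0.96. Leaving out single lines gave -1.03 to -0.59 for integrins and cadherins and -0.81 to -0.36 for semaphorins. The median of the D cyclin list is CCND2 itself, and both ran from -0.29 to 0.39 (without line 21). CCND2, not called in the main setting, was also above 0 with the score as a continuous term (0.06), array weights (0.12) and the 1st array of line 19 alone (0.03). The causes were not tested.

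No paired analysis was possible because high and low lines come from separate dogs and replicate numbers follow accession order. Values under log2 5 are near the array's dim end, so differences of genes dim in one group depend on the background correction. Culture age and passage are not labelled, so their part in the differences was not tested.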
